A study of Mus musculus with 12 samples.

Results

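The 35 genes described here encode p53, its regulators and its transcriptional targets, together with the Cdkn2 inhibitors of the cell cycle. They were listed by name rather than by a cutoff on a measured value, with earlier results of these data already known. Each symbol matched 1 Ensembl ID among the 55335 gene rows of the count files, and all 35 were among the 16597 genes with enough reads to be tested. By role they comprise 4 regulators (p53 itself and its feedback loop), 8 genes of cell cycle arrest, 4 of DNA repair and nucleotide supply, 15 of cell death and survival, and 4 of stress protection and metabolism. Their transcripts were counted in 12 RNA-seq libraries of mouse fibro-adipogenic progenitors (FAPs), the mesenchymal stromal cells of skeletal muscle, sorted from limb muscle as Lin- Vcam- Sca1+ cells and grown in serum.

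The libraries form 4 groups of 3. Smn1OE cells had received 4-hydroxytamoxifen (4-OHT) to delete Bap1, which encodes a nuclear deubiquitinase, and a vector with the human form of SMN, which loads Sm proteins onto spliceosomal RNAs. Smn1OE_K186R cells had received 4-OHT and a vector for SMN with the K186R change. Bap1KO cells had received 4-OHT alone, and WT cells had received ethanol as its control. Deletion relied on Rosa-CreER per the treatment text, whereas the source label names Prrx1Cre;Bap1f/f cKO mice. Bap1f/f stands for floxed Bap1, cKO for conditional knockout, and Prrx1Cre is a driver of limb mesenchyme. These texts were not reconciled here, so WT is used only as the label of the ethanol group. Per the labels no group had an empty vector or 4-OHT without Rosa-CreER deletion of Bap1, so neither agent's own effect can be told apart from that of the gene. Strain, age and sex are not given in the labels, which also do not say whether replicates came from separate animals, so the p-values measure the spread between these samples. Per the labels, each of 3 culture media batches held 1 Bap1KO and 1 WT library of the same replicate number, and each of another 3 held 1 library of each SMN group.

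p53 is a transcription factor that is kept scarce in unstressed cells by MDM2, the ubiquitin ligase that marks it for destruction. DNA damage, ribosome stress or oncogene activity stabilises it, and it then binds a response element made of 2 half-sites, each with the consensus known as the p53 half-site. Its targets halt the cell cycle, repair DNA, start mitochondrial or receptor-driven death, and, through MDM2 itself, close a negative feedback loop. The Cdkn2a locus, which makes p16INK4a and the MDM2 antagonist p19ARF, and its neighbour Cdkn2b are the inhibitors best known from cellular senescence, the lasting arrest that cultured fibroblasts can enter.

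The 12 libraries held 51.2 to 68.2 M counts in genes, and counting error is small beside the spread between replicates for most of these genes. The targeted genes were checked first. Bap1 averaged 49.1 ± 1.4 CPM in Smn1OE, 45.3 ± 3.15 CPM in Smn1OE_K186R, 40.3 ± 1.74 CPM in Bap1KO and 50.5 ± 1.32 CPM in WT (SD, n = 3 each). It was lower in Bap1KO than in WT (-0.32, adjusted p = 0.0139) but was not called against WT in Smn1OE (-0.042, adjusted p = 0.638) or Smn1OE_K186R (-0.16, adjusted p = 0.0767), and it was higher in Smn1OE than in Bap1KO (0.28, adjusted p = 0.00924). The Bap1 counts of the SMN groups thus do not show the deletion that their labels give. Whole-gene counts include transcripts that lack a deleted exon, so they do not settle how far Bap1 was deleted in any group. Counts at Smn1 were at least 3688 CPM in every SMN library and at most 35.1 CPM in every Bap1KO or WT library. Xist, the RNA of the inactive X chromosome, was at most 0.113 CPM in the SMN libraries and at least 197 CPM in the others, so wherever an SMN group is set against Bap1KO or WT, the vector, the media batch and sex-linked expression differ together and cannot be told apart. On the first principal component, with 59% of the variance, Bap1KO replicate 2 stood at -14.6, between the SMN libraries (41.3 to 76.9) and the other Bap1KO libraries (-60.5 and -38.7). In Smn1OE_K186R replicate 2, deviations from the group mean rose with gene length (Spearman 0.346 across genes, which are not independent replicates). This was the strongest such trend, and weaker ones of either sign stood in other libraries, such as -0.27 in Smn1OE_K186R replicate 3 and 0.217 in WT replicate 3. The summed level of the 10 FAP markers was 3337 to 5180 CPM in Smn1OE, 3994 to 5616 CPM in Smn1OE_K186R, 8688 to 15526 CPM in Bap1KO and 13817 to 20232 CPM in WT, and 8 of the 10 were lower in each SMN group than in WT. Markers of T cells were absent or nearly so (Cd3e and Cd3g at 0, the 7 lymphoid markers summing to 2.07 to 3.22 CPM). The 8 macrophage markers summed to 22.3 to 36.4 CPM over all libraries. Of the 5 tested, 2 were called higher and 2 lower in each SMN group against WT. In Smn1OE the higher ones were Cd68 (1.79, adjusted p = 9.8e-05) and Ptprc (4.48, adjusted p = 0.00287, mean 0.272 CPM). Cd14 was among the lower ones (-1.39, adjusted p = 0.000732 in Smn1OE). The 5 tenocyte markers summed to 27.1 to 41.4 CPM in Smn1OE, 39.1 to 65.6 CPM in Smn1OE_K186R, 205 to 543 CPM in Bap1KO and 269.8 to 479 CPM in WT. The 8 myogenic markers, of which Myf5 was at 0 and Acta1 of muscle fibres was the most abundant, summed to 412 to 661 CPM in Smn1OE, 365 to 632 CPM in Smn1OE_K186R, 319 to 447 CPM in Bap1KO and 250.2 to 318 CPM in WT. Acta1 itself rose in Smn1OE (469 ± 129.8 CPM in Smn1OE and 130.1 ± 24.7 CPM in WT, 1.85, adjusted p = 0.000864) and in Smn1OE_K186R (1.6, adjusted p = 0.00203) against WT. Of the 4 myogenic markers tested, 1 was called higher and 2 lower in each SMN group against WT. The lower ones were Des (-1.14, adjusted p = 0.00743 in Smn1OE) and Vcam1 (-0.9, adjusted p = 0.00449 in Smn1OE). The 7 pericyte and smooth muscle markers summed to 269 to 443 CPM in Smn1OE, 243 to 434 CPM in Smn1OE_K186R, 196 to 293 CPM in Bap1KO and 225 to 297 CPM in WT. In Smn1OE against WT, 1 of the 7 was called higher (Mcam, 1.03, adjusted p = 0.0475) and 2 lower (Kcnj8, -2.3, adjusted p = 0.0273 and Abcc9, -1.6, adjusted p = 0.00668). In Smn1OE_K186R against WT, 0 were higher and 2 lower. Set against Bap1KO, 3 were higher and 0 lower in each SMN group. The part of these marker differences in the results below was not tested, and in bulk RNA fewer cells of a type and less RNA per cell cannot be told apart.

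Levels below are in CPM, the read count scaled to the size of the library after TMM normalization. Differences are log2 fold changes ± standard error from edgeR's quasi-likelihood test, fitted to the 12 libraries together (8 residual degrees of freedom). The adjusted p is the Benjamini-Hochberg value over the 16597 genes tested, and a gene is called where it is under 0.05. Per kilobase of exon, averaged over the 12 libraries, the most abundant of the 35 were Cdkn1a (253 CPM per kb), Ccng1 (212), Phlda3 (209), Ephx1 (189.7) and Bax (112). The scarcest were Sesn1 (1.16 CPM per kb), Ddb2 (1.33) and Rrm2b (1.55).

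Of the 35 listed genes, more were called higher than lower in both SMN groups, and a smaller set rose in Bap1KO against WT. Of 23 other p53 targets tested, 3 rose and 3 fell in Smn1OE and 3 rose and 4 fell in Smn1OE_K186R against WT. These are 26.1% and 30.4% of that list, under the 50.4% and 50.5% of all genes, so the lean describes the 35 alone. In Smn1OE against WT, 19 of the 35 rose, 4 fell and 12 were not called, while 50.4% of all tested genes were called in that comparison (23.8% higher, 26.6% lower). In Smn1OE_K186R against WT, 20 rose, 5 fell and 10 were not called, against 50.5% of all genes (24% higher, 26.5% lower). Compared with Bap1KO, 16 rose and 4 fell in Smn1OE, where 33.5% of all genes were called (15.8% higher, 17.7% lower), and 16 rose and 3 fell in Smn1OE_K186R, where 32.6% were (16.1% higher, 16.5% lower). Bap1 itself was higher in Smn1OE than in Bap1KO, as given above. In Bap1KO against WT, 7 rose and 2 fell, where 9.72% of all genes were called (3.36% higher, 6.37% lower). The median log2 fold change of the 35 was 0.33 in Smn1OE and 0.42 in Smn1OE_K186R against WT, 0.22 in Smn1OE and 0.23 in Smn1OE_K186R against Bap1KO, and 0.091 in Bap1KO against WT. When limma voom took the culture batch as a random term, 16 rose and 4 fell in Smn1OE and 16 rose and 3 fell in Smn1OE_K186R against Bap1KO, where 33.2% of all genes were called for Smn1OE and 33% for Smn1OE_K186R. Against WT that fit gave 20 higher and 5 lower in Smn1OE (50.1% of all genes called) and 20 higher and 6 lower in Smn1OE_K186R (50.4%). Over all genes tested the median log2 fold changes lay between -0.021 and 0. The comparisons share groups (WT or Bap1KO libraries stand in several of them), so they are not independent of each other.

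**Figure D1:**
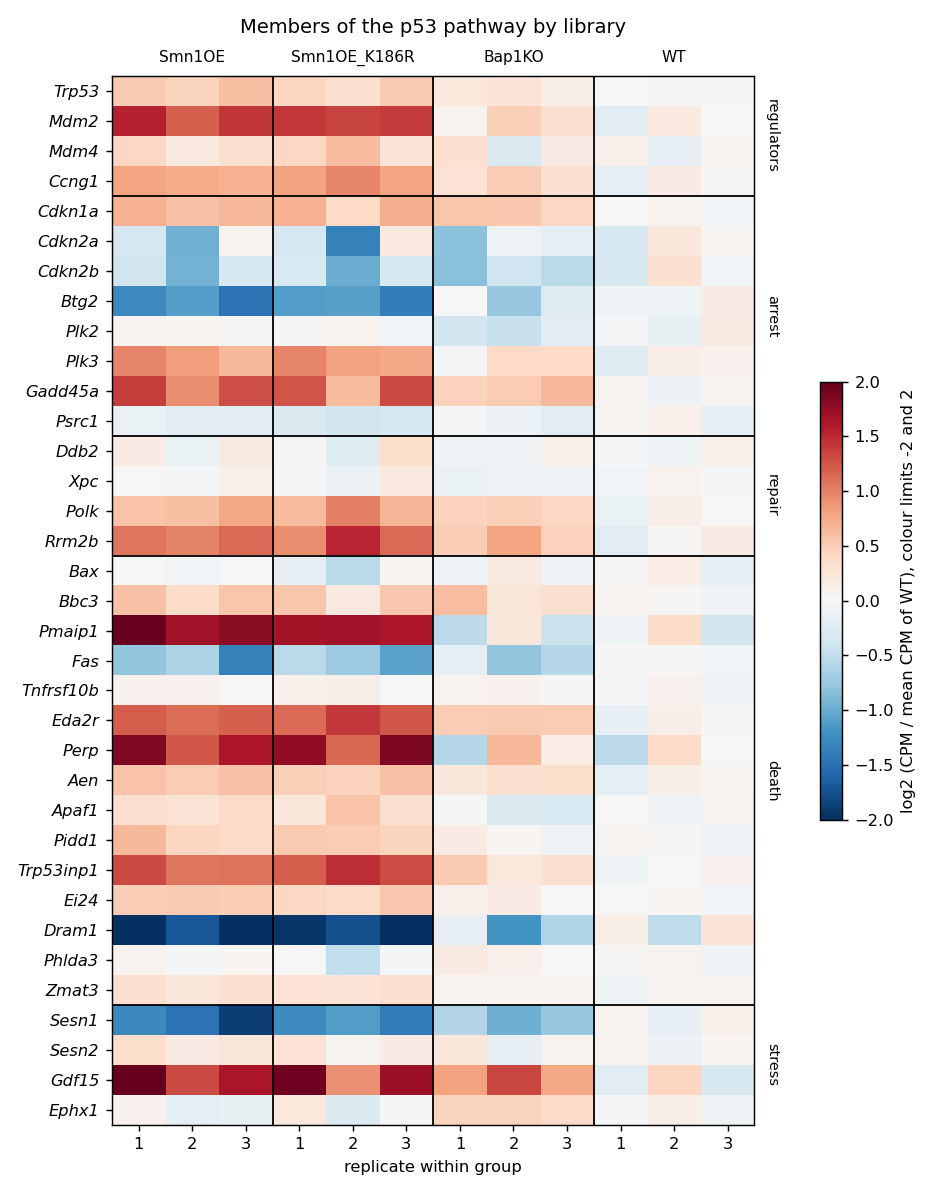
Level of each of the 35 genes in each of the 12 libraries, as log2 of its CPM over the gene's mean CPM in WT (red above, blue below, colours limited at -2 and 2), with rows grouped by role. The SMN libraries stand apart from WT for Mdm2, Pmaip1, Eda2r and Trp53inp1 (red) and for Btg2, Dram1 and Sesn1 (blue), while Bax, Tnfrsf10b, Xpc and Ddb2 show little difference between groups.

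RefSeq promoter windows (250 bases before to 50 after a listed start, build GRCm38.p6) were searched for the p53 half-site, whose consensus is its own reverse complement, so that 1 search covers both strands. Of the 35 genes, 27 have a window in that table, and 10 of these 27 hold at least 1 match (37.0%), against 9.55% of 27025 genes with a window. The 35 were listed largely as known p53 targets, so this excess could come from that choice and is no result of these libraries. Matches to 2 half-sites with at most 13 bases between them occurred in 1 member window, that of the upstream listed start of Cdkn1a, and in 0.0731% of all 32851 windows. That window (chr17:29090729-29091028, plus strand) is shown because Cdkn1a was higher than WT in all 3 other groups, with the half-sites in capitals at -73 and -51 and 12 bases between them. The 10 bases after the second, tgacatgttc, differ from the half-site consensus at 1 position.
Cdkn1a: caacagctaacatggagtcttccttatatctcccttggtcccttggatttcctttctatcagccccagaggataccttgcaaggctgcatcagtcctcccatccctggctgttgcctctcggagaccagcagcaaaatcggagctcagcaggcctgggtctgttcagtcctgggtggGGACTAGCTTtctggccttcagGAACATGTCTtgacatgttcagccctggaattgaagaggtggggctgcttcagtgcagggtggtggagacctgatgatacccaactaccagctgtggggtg
For comparison, the stretches around the matches of Mdm2 (chr10:117710910-117710969, minus strand) and Ccng1 (chr11:40755437-40755496, minus strand), both higher than WT in each SMN group, of Sesn1 (chr10:41887241-41887300, plus strand), which was lower, and of Bax (chr7:45467065-45467124, minus strand), which was not called, are given with the match in capitals.
Mdm2: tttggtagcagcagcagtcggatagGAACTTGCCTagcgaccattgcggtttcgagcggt
Ccng1: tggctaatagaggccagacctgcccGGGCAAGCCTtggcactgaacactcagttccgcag
Sesn1: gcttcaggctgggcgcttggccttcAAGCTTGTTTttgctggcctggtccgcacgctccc
Bax: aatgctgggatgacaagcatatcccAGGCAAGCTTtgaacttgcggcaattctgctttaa
Matches thus stood beside genes of every outcome. Of the 10 genes with a match, 8 were higher, 1 lower and 1 not called against WT in Smn1OE, and of the 17 without one, 6 were higher, 3 lower and 8 not called. In Smn1OE_K186R the counts were 8, 1 and 1 with a match and 7, 4 and 6 without. Calls of genes outside the 35 were not counted by match, and a link between match and call was not tested. A match describes letters in these windows, not a bound site, and response elements in introns or further upstream were not searched.

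Of the 4 regulators, 3 rose in Smn1OE and 4 in Smn1OE_K186R against WT, and 3 rose in each SMN group against Bap1KO, beside the shares of all genes given above. Mdm2, p53's ubiquitin ligase and its best known feedback target, had the largest difference of the 4 in these comparisons. It stood at 566, 448 and 524 CPM in Smn1OE, 519, 499 and 513 CPM in Smn1OE_K186R, 204, 272 and 240.1 CPM in Bap1KO, and 168, 224 and 193 CPM in WT. Every SMN library lay above every Bap1KO and WT library, and the Bap1KO and WT ranges overlapped. Mdm2 was 2.14-fold higher in Smn1OE (1.1 ± 0.13, adjusted p = 0.000227) and 2.14-fold higher in Smn1OE_K186R than in Bap1KO (1.09 ± 0.13, adjusted p = 0.0003). Against WT the differences were 1.4 ± 0.13, adjusted p = 1.51e-05 in Smn1OE and 1.39 ± 0.13, adjusted p = 1.64e-05 in Smn1OE_K186R. Bap1KO differed from WT by 0.29 ± 0.13, adjusted p = 0.159.

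Trp53, which encodes p53, was at 188, 178 and 198 CPM in Smn1OE, 176, 164 and 187 CPM in Smn1OE_K186R, 151, 157 and 143 CPM in Bap1KO, and 132, 134 and 127 CPM in WT. All SMN libraries were above all Bap1KO libraries, and these above all WT libraries. Against Bap1KO the transcript rose in Smn1OE (0.33 ± 0.072, adjusted p = 0.00548) and in Smn1OE_K186R (0.23 ± 0.072, adjusted p = 0.031). The second of these calls was lost on omitting Bap1KO library 1 or 3 or Smn1OE_K186R library 1 or 3 (adjusted p up to 0.119). Against WT the rise was 0.53 ± 0.072 in Smn1OE (adjusted p = 0.000142) and 0.42 ± 0.072 in Smn1OE_K186R (adjusted p = 0.000543), and in Bap1KO against WT the difference was 0.2 ± 0.072, adjusted p = 0.102. p53 is controlled mainly through the stability of its protein, which these libraries do not measure.

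Ccng1, cyclin G1, a target that recruits a phosphatase to MDM2, was likewise higher in the SMN groups than in Bap1KO, and higher in Bap1KO than in WT. It was at 889, 864 and 835 CPM in Smn1OE, 895, 1016 and 889 CPM in Smn1OE_K186R, 629.9, 726 and 637 CPM in Bap1KO, and 449, 574 and 520.1 CPM in WT. All SMN libraries were above all Bap1KO libraries, and these above all WT libraries, and each Smn1OE_K186R library was above each Smn1OE library, the nearest pair by less than 1 CPM. Ccng1 rose in Bap1KO against WT (0.37 ± 0.099, adjusted p = 0.0371), a call that was lost on omitting Bap1KO library 2 or 3 or WT library 1 or 3 (adjusted p up to 0.139). It rose further in Smn1OE (0.38 ± 0.099, adjusted p = 0.0128, up to 0.0513 on omitting Bap1KO library 1 or 3) and in Smn1OE_K186R against Bap1KO (0.49 ± 0.099, adjusted p = 0.00391). Mdm4, the partner of MDM2 that blocks p53's activation domain, ranged over 35.8 to 67.8 CPM and was called in 1 comparison, Smn1OE_K186R against WT (0.44 ± 0.15, adjusted p = 0.0242). That call was lost on omitting Smn1OE_K186R library 2 or WT library 2 (adjusted p up to 0.0983). Smn1OE_K186R replicate 2, the library with the strongest length trend, had the highest Mdm4 value. Gene counts do not separate the splice forms of Mdm2 and Mdm4.

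**Figure D2:**
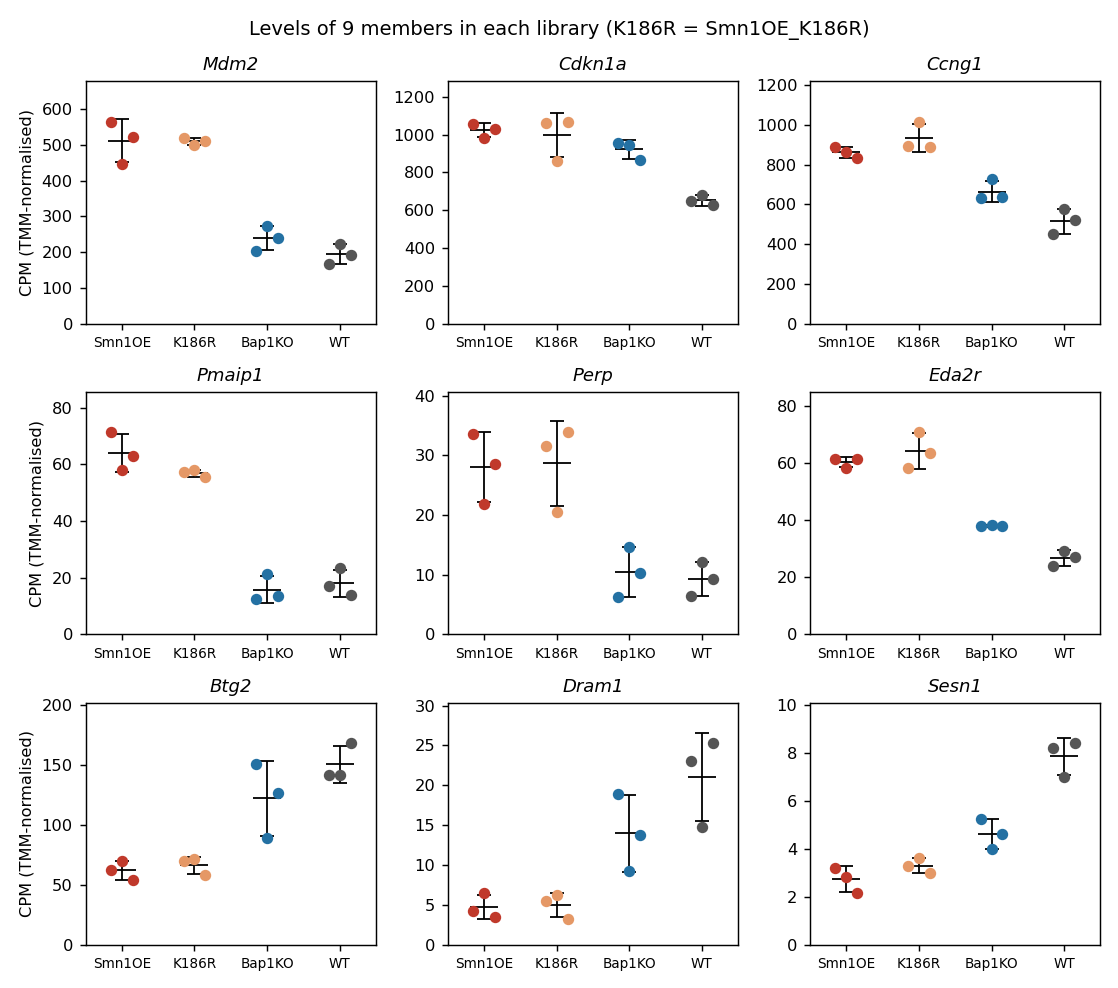
CPM (linear axis from 0) of 9 of the genes, with 1 point per library, a long line at the group mean, bars for 1 SD and groups from left to right Smn1OE, Smn1OE_K186R, Bap1KO and WT. The points of both SMN groups lie above those of Bap1KO and WT for Mdm2 and Pmaip1 and below them for Dram1, and Cdkn1a separates WT from the other 3 groups.

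Of the 8 arrest genes, 3 rose and 1 fell in Smn1OE and 3 rose and 2 fell in Smn1OE_K186R against WT. The 50% called in Smn1OE is near the 50.4% of all genes, and in Smn1OE_K186R it was 62.5% against 50.5%. Against Bap1KO 3 rose and 1 fell in each SMN group (50% called, against 33.5% of all genes in Smn1OE and 32.6% in Smn1OE_K186R). The 4 calls in Smn1OE_K186R against Bap1KO became 2 on omitting Bap1KO library 1. Cdkn1a, which encodes the CDK inhibitor p21 and is the main arrest target of p53, was at 1057, 983 and 1031 CPM in Smn1OE, 1060.5, 862 and 1069 CPM in Smn1OE_K186R, 959, 944 and 865 CPM in Bap1KO, and 649, 681 and 626 CPM in WT. All 9 libraries labelled as treated with 4-OHT were above all WT libraries, and Smn1OE_K186R overlapped Bap1KO. Cdkn1a rose 1.41-fold in Bap1KO (0.5 ± 0.09, adjusted p = 0.00686), 1.57-fold in Smn1OE (0.65 ± 0.09, adjusted p = 0.000151) and 1.53-fold in Smn1OE_K186R against WT (0.61 ± 0.09, adjusted p = 0.000228). Between the SMN groups and Bap1KO it was not called (0.15 ± 0.09, adjusted p = 0.216 for Smn1OE, 0.11 ± 0.09, adjusted p = 0.357 for Smn1OE_K186R).

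Gadd45a, a stress sensor that binds PCNA and CDK1, was at 55.1, 40.2 and 51.5 CPM in Smn1OE, 50.5, 32.7 and 52.7 CPM in Smn1OE_K186R, 29.2, 30.04 and 33.7 CPM in Bap1KO, and 21.9, 19.4 and 22.2 CPM in WT. The WT libraries were the lowest 3 and Smn1OE lay above all Bap1KO libraries, while Smn1OE_K186R replicate 2 fell within the Bap1KO range. Gadd45a rose against Bap1KO in Smn1OE (0.66 ± 0.16, adjusted p = 0.01) and in Smn1OE_K186R (0.55 ± 0.16, adjusted p = 0.024, up to 0.0909 on omitting Bap1KO library 1 or 2 or Smn1OE_K186R library 1 or 3), and in Bap1KO against WT the difference was 0.55 ± 0.17, adjusted p = 0.0561. A non-coding gene on the opposite strand shares 19.1% of its exon bases, and the strand setting of the counting is not given in the sources used here. Its reads summed to 1237 over all libraries, against 27425 for Gadd45a.

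The polo-like kinases 2 and 3 are stress-inducible kinases that act on the centrosome and on checkpoint proteins. Plk3 was at 58.7, 53.4 and 46.8 CPM in Smn1OE, 58.9, 52 and 50.2 CPM in Smn1OE_K186R, 29.4, 39.2 and 39.2 CPM in Bap1KO, and 25.1, 32.8 and 31.5 CPM in WT. It was higher in every SMN library than in every Bap1KO or WT library (0.56 ± 0.14, adjusted p = 0.00854 for Smn1OE against Bap1KO, 0.58 ± 0.14, adjusted p = 0.00776 for Smn1OE_K186R). Plk2 was at 222, 219 and 219 CPM in Smn1OE, 217, 226 and 206 CPM in Smn1OE_K186R, 166, 158 and 185 CPM in Bap1KO, and 208, 193 and 243 CPM in WT. Here Bap1KO alone was set apart, below all other libraries. Plk2 fell in Bap1KO against WT (-0.34 ± 0.09, adjusted p = 0.0358, up to 0.133 on omitting Bap1KO library 1 or 2 or WT library 1 or 3) and was higher in both SMN groups than in Bap1KO (0.38 ± 0.09, adjusted p = 0.00821 for Smn1OE, 0.35 ± 0.09, adjusted p = 0.0122 for Smn1OE_K186R, the second up to 0.0507 on omitting Bap1KO library 1). Against WT it was 0.038 ± 0.09, adjusted p = 0.745 in Smn1OE and 0.012 ± 0.09, adjusted p = 0.926 in Smn1OE_K186R.

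Btg2, an antiproliferative cofactor of mRNA deadenylation, went the other way. It was at 62.5, 70.1 and 54.2 CPM in Smn1OE, 69.7, 71.4 and 58 CPM in Smn1OE_K186R, 151, 88.9 and 127 CPM in Bap1KO, and 142, 142 and 169 CPM in WT. All 6 SMN libraries were below all Bap1KO and WT libraries, and Bap1KO replicate 2 was the lowest of its group. Btg2 fell against Bap1KO in Smn1OE (-0.97 ± 0.17, adjusted p = 0.00167) and in Smn1OE_K186R (-0.88 ± 0.17, adjusted p = 0.00304). It also fell against WT (-1.28 ± 0.17, adjusted p = 0.000118 in Smn1OE and -1.18 ± 0.17, adjusted p = 0.000192 in Smn1OE_K186R). Psrc1, a spindle protein that p53 induces, ranged over 59.4 to 82.5 CPM and was lower in Smn1OE_K186R than in WT (-0.33 ± 0.08, adjusted p = 0.00442), with no other call.

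In edgeR's test of the 12 libraries without a batch term, the senescence inhibitors of the Cdkn2 locus were not called in any comparison. With the batch as a block, both were lower in Bap1KO than in WT. Their level varied between culture batches. Cdkn2a was at 62.5, 40.7 and 82.8 CPM in Smn1OE, 62.4, 30.9 and 90.8 CPM in Smn1OE_K186R, 45, 74 and 69.2 CPM in Bap1KO, and 63.4, 92.5 and 81.6 CPM in WT. Replicate 2 was the lowest and replicate 3 the highest in both SMN groups, whereas replicate 1 was the lowest and replicate 2 the highest in Bap1KO and WT, where the libraries of a number share a batch. Cdkn2b, the neighbouring inhibitor p15, was at 33.9, 22.5 and 34.7 CPM in Smn1OE, 35.3, 21.8 and 34.8 CPM in Smn1OE_K186R, 24.3, 32.9 and 30.00 CPM in Bap1KO, and 34.8, 53.7 and 41.9 CPM in WT. Replicate 2 was again the lowest of each SMN group, and replicate 1 the lowest and replicate 2 the highest of Bap1KO and of WT. The tests without a batch term gave -0.34 ± 0.34, adjusted p = 0.582 for Cdkn2a and -0.58 ± 0.22, adjusted p = 0.117 for Cdkn2b in Bap1KO against WT. With the batch as a block, which the labels' pairing allows, both were lower in Bap1KO (Cdkn2a -0.35 ± 0.087, adjusted p = 0.00886; Cdkn2b -0.57 ± 0.068, adjusted p = 5.2e-05). Cdkn2b was also called lower than WT in both SMN groups by limma voom with the batch as a random effect (adjusted p = 0.0292 for Smn1OE and 0.03 for Smn1OE_K186R). Counts per gene do not tell the p16INK4a transcript of Cdkn2a from the p19ARF transcript.

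Of the 4 repair genes, the pair that supplies nucleotides or bypasses damage rose in each SMN group and in Bap1KO against WT, and the pair that recognises ultraviolet damage was not called. For the SMN groups that share of 50% is near the 50.4% and 50.5% of all genes. In Bap1KO against WT 9.72% of all genes were called. Rrm2b, the p53-inducible small subunit of ribonucleotide reductase, was at 17.2, 16.2 and 17.9 CPM in Smn1OE, 15.6, 23.5 and 17.9 CPM in Smn1OE_K186R, 11.4, 14.1 and 11.3 CPM in Bap1KO, and 7.06, 8.33 and 9.12 CPM in WT. The 3 levels (SMN groups, Bap1KO, WT) did not overlap. Rrm2b rose in Bap1KO against WT (0.59 ± 0.16, adjusted p = 0.0358) and in each SMN group against Bap1KO (0.48 ± 0.16, adjusted p = 0.0332 for Smn1OE, 0.63 ± 0.16, adjusted p = 0.00999 for Smn1OE_K186R). The first was lost on omitting Bap1KO library 2 or 3 or WT library 1 or 2 (adjusted p up to 0.138), and the second on omitting Bap1KO library 1 or 3 or Smn1OE library 1 or 3 (up to 0.11) and with the batch as a random effect (0.0513). Against WT the rise was 1.07 ± 0.16, adjusted p = 0.00022 in Smn1OE and 1.22 ± 0.16, adjusted p = 0.000104 in Smn1OE_K186R.

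Polk, a translesion DNA polymerase, was at 38.8, 39.7 and 44.6 CPM in Smn1OE, 40.5, 52.5 and 41.9 CPM in Smn1OE_K186R, 35.9, 36.5 and 34.9 CPM in Bap1KO, and 23.8, 28.5 and 26 CPM in WT. It was higher than in WT in all 3 groups that received 4-OHT, with no overlap (0.65 ± 0.11, adjusted p = 0.000416 in Smn1OE, 0.78 ± 0.11, adjusted p = 0.000138 in Smn1OE_K186R, 0.45 ± 0.11, adjusted p = 0.0213 in Bap1KO). The Bap1KO call was lost on omitting Bap1KO library 2 or 3 or WT library 1 or 3 (adjusted p up to 0.0912). It rose in Smn1OE_K186R against Bap1KO (0.33 ± 0.11, adjusted p = 0.0313), up to 0.114 without any 1 Bap1KO library or Smn1OE_K186R library 2, and was 0.2 ± 0.11, adjusted p = 0.167 in Smn1OE against Bap1KO. Xpc, which recognises bulky lesions, ranged over 11.4 to 14.2 CPM, and Ddb2, its partner in ultraviolet damage recognition, over 3.01 to 4.54 CPM. Neither was called in a comparison, and the Ddb2 value is uncertain, since 23.8% of its exon bases are shared with Acp2 on the opposite strand, a gene with 41609 reads against 2732 for Ddb2.

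Of the 15 genes of cell death and survival, 10 rose and 2 fell in each SMN group against WT (80.0% called, against 50.4% of all genes in Smn1OE and 50.5% in Smn1OE_K186R), while 2 rose in Bap1KO (13.3%, against 9.72% of all genes). Against Bap1KO 9 rose and 1 fell in Smn1OE (66.7% called, against 33.5% of all genes). In Smn1OE_K186R 8 rose and 1 fell against Bap1KO (60% called, against 32.6% of all genes). Pmaip1, which encodes the BH3-only protein NOXA, an inhibitor of MCL1, was at 71.3, 58 and 62.8 CPM in Smn1OE, 57.2, 57.9 and 55.5 CPM in Smn1OE_K186R, 12.5, 21.2 and 13.4 CPM in Bap1KO, and 17, 23.3 and 14 CPM in WT. The lowest SMN library was above the highest Bap1KO or WT library by more than any spread within a group, and Bap1KO overlapped WT. It was 4.07-fold higher in Smn1OE (2.03 ± 0.21, adjusted p = 0.000129) and 3.61-fold higher in Smn1OE_K186R than in Bap1KO (1.85 ± 0.21, adjusted p = 0.00026). Against WT it was 1.83 ± 0.21, adjusted p = 4.5e-05 in Smn1OE and 1.65 ± 0.2, adjusted p = 8.03e-05 in Smn1OE_K186R, and in Bap1KO against WT -0.2 ± 0.2, adjusted p = 0.577.

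Perp, a desmosomal membrane protein and p53 effector of death, was at 33.6, 21.9 and 28.5 CPM in Smn1OE, 31.6, 20.5 and 33.9 CPM in Smn1OE_K186R, 6.26, 14.7 and 10.3 CPM in Bap1KO, and 6.43, 12.2 and 9.26 CPM in WT. Replicate 2 was the lowest of each SMN group and the highest of Bap1KO and of WT, yet the SMN libraries did not overlap the others. Perp rose in Smn1OE (1.43 ± 0.31, adjusted p = 0.00516) and Smn1OE_K186R against Bap1KO (1.46 ± 0.31, adjusted p = 0.00507), and differed from WT in Bap1KO by 0.17 ± 0.31, adjusted p = 0.787. Trp53inp1, a stress protein that promotes p53 phosphorylation and autophagy, was at 109.8, 91.7 and 93.1 CPM in Smn1OE, 101, 122 and 108 CPM in Smn1OE_K186R, 62.6, 50.4 and 54.3 CPM in Bap1KO, and 41.3, 43.6 and 46.3 CPM in WT. The 3 levels again did not overlap. Against Bap1KO it rose in Smn1OE (0.82 ± 0.1, adjusted p = 0.000377) and in Smn1OE_K186R (0.98 ± 0.1, adjusted p = 0.000222), and the difference of Bap1KO from WT was 0.35 ± 0.1, adjusted p = 0.0521.

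Eda2r, the X-linked receptor of ectodysplasin A2 in the TNF receptor family, was at 61.5, 58.2 and 61.4 CPM in Smn1OE, 58.4, 70.7 and 63.4 CPM in Smn1OE_K186R, 37.8, 38.4 and 37.8 CPM in Bap1KO, and 23.8, 29.2 and 27.1 CPM in WT. Each group stood clear of the one below it, the SMN groups overlapping only each other. It rose in Bap1KO against WT (0.51 ± 0.088, adjusted p = 0.00575), where Xist was high in both groups, and in Smn1OE (0.67 ± 0.088, adjusted p = 0.000425) and Smn1OE_K186R against Bap1KO (0.76 ± 0.088, adjusted p = 0.000305), where Xist differed. The calls in Bap1KO against WT held in each alternative tried for Eda2r and Cdkn1a alone among the 9.

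The remaining risers of this arm changed less. Apaf1, the scaffold of the apoptosome, was at 35.8, 34.5 and 37.1 CPM in Smn1OE, 33.3, 42.2 and 35 CPM in Smn1OE_K186R, 27.9, 23.2 and 23 CPM in Bap1KO, and 28.5, 26.9 and 29.7 CPM in WT, and rose in Smn1OE (0.53 ± 0.1, adjusted p = 0.00294) and Smn1OE_K186R against Bap1KO (0.58 ± 0.1, adjusted p = 0.0023). Against WT its rise in Smn1OE (0.33 ± 0.1, adjusted p = 0.0174) was lost on omitting Smn1OE library 3 or WT library 2 (adjusted p up to 0.0658). Pidd1, the scaffold that activates caspase-2, Ei24, an endoplasmic reticulum protein of autophagy, and Zmat3, an RNA-binding regulator of splicing, were each higher in every SMN library than in every Bap1KO library. Pidd1 ranged over 16.5 to 27.8 CPM, Ei24 over 105 to 158 CPM and Zmat3 over 113 to 154 CPM across the 12 libraries. Their differences in Smn1OE against Bap1KO were 0.45 ± 0.096, adjusted p = 0.00444 for Pidd1, 0.41 ± 0.067, adjusted p = 0.00126 for Ei24 and 0.25 ± 0.064, adjusted p = 0.012 for Zmat3. In Smn1OE_K186R they were 0.45 ± 0.096, adjusted p = 0.0048 for Pidd1, 0.36 ± 0.067, adjusted p = 0.00274 for Ei24 and 0.26 ± 0.064, adjusted p = 0.0102 for Zmat3. Without a filter on low counts Zmat3 was not called against Bap1KO in either SMN group (adjusted p up to 0.0711 in Smn1OE).

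Aen, a nuclease that p53 induces, was at 136, 129.9 and 136 CPM in Smn1OE, 126, 126 and 137 CPM in Smn1OE_K186R, 107, 114 and 115 CPM in Bap1KO, and 79.5, 98.9 and 94.3 CPM in WT. The WT libraries were lowest, and each SMN library was above each Bap1KO library. It rose in Bap1KO against WT (0.3 ± 0.083, adjusted p = 0.0417, up to 0.146 on omitting Bap1KO library 2 or 3 or WT library 1 or 3) and in Smn1OE against Bap1KO (0.26 ± 0.083, adjusted p = 0.031, up to 0.122 without any 1 Bap1KO library or Smn1OE library 1 or 3). In Smn1OE_K186R against Bap1KO it was 0.21 ± 0.083, adjusted p = 0.0661. Bbc3, the BH3-only protein PUMA, was at 25.7, 22.1 and 25.1 CPM in Smn1OE, 25.1, 19.5 and 24.8 CPM in Smn1OE_K186R, 26.1, 20.2 and 21.3 CPM in Bap1KO, and 17.6, 17.4 and 16.3 CPM in WT. WT was lowest without overlap and the other groups overlapped. Bbc3 rose against WT in Smn1OE (0.51 ± 0.12, adjusted p = 0.00456) and Smn1OE_K186R (0.44 ± 0.12, adjusted p = 0.0107), and in Bap1KO the difference was 0.4 ± 0.12, adjusted p = 0.0594.

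Death genes that fell were Dram1, a lysosomal protein of p53-linked autophagy, and Fas, the classical death receptor. Dram1 was at 4.3, 6.47 and 3.5 CPM in Smn1OE, 5.46, 6.19 and 3.29 CPM in Smn1OE_K186R, 18.9, 9.2 and 13.8 CPM in Bap1KO, and 23, 14.8 and 25.3 CPM in WT. All SMN libraries were below all Bap1KO and WT libraries, and Bap1KO replicate 2 was the lowest of the Bap1KO libraries. Dram1 fell against Bap1KO in Smn1OE (-1.55 ± 0.32, adjusted p = 0.00415) and Smn1OE_K186R (-1.48 ± 0.32, adjusted p = 0.00557), the most negative differences among the 35 in those comparisons. Fas was at 10.6, 11.6 and 7.08 CPM in Smn1OE, 12.3, 10.9 and 8.53 CPM in Smn1OE_K186R, 15.9, 10.4 and 12.1 CPM in Bap1KO, and 18.3, 18.2 and 17.4 CPM in WT. It fell against WT in Smn1OE (-0.88 ± 0.2, adjusted p = 0.00322) and Smn1OE_K186R (-0.76 ± 0.2, adjusted p = 0.00711), and against Bap1KO it was not called (-0.39 ± 0.2, adjusted p = 0.151 for Smn1OE and -0.27 ± 0.2, adjusted p = 0.311 for Smn1OE_K186R).

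Bax, the pore-forming effector of mitochondrial death, Tnfrsf10b, the mouse TRAIL receptor, and Phlda3, which blocks AKT at the membrane, were called in no comparison. Bax ranged over 126 to 207 CPM, with the 95% interval of its log2 fold change at -0.31 to 0.28 in Smn1OE and -0.49 to 0.099 in Smn1OE_K186R against WT. Tnfrsf10b ranged over 68 to 77.6 CPM, with intervals of -0.1 to 0.2 in Smn1OE and -0.078 to 0.22 in Smn1OE_K186R. Phlda3 ranged over 234 to 371 CPM, with intervals of -0.22 to 0.27 in Smn1OE and -0.41 to 0.081 in Smn1OE_K186R. The intervals for Tnfrsf10b were the narrowest of the 3.

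Of the 4 stress genes, 1 rose and 1 fell in each SMN group and in Bap1KO against WT, and for the SMN groups these 50% are near the share of all genes (50.4% in Smn1OE, 50.5% in Smn1OE_K186R). The share of all genes called in Bap1KO against WT was 9.72%. Gdf15, a secreted stress cytokine, was at 93, 50.2 and 62.2 CPM in Smn1OE, 77, 37.9 and 65.8 CPM in Smn1OE_K186R, 35.1, 50.8 and 34.2 CPM in Bap1KO, and 17.1, 26.9 and 16 CPM in WT. All WT libraries were lowest, Bap1KO replicate 2 was the highest of Bap1KO and lay within the SMN range, and replicate 2 was the lowest of each SMN group. It rose against WT in Smn1OE (1.77 ± 0.3, adjusted p = 0.000547) and Smn1OE_K186R (1.59 ± 0.3, adjusted p = 0.00105). Against Bap1KO it was not called (0.78 ± 0.29, adjusted p = 0.0594 for Smn1OE, 0.59 ± 0.29, adjusted p = 0.139 for Smn1OE_K186R), though it was in Smn1OE on omitting Bap1KO library 2 or Smn1OE library 2 (adjusted p down to 0.0368) and with the batch as a random effect (0.0308). Bap1KO differed from WT by 1.00 ± 0.3, adjusted p = 0.0529.

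Sesn1, a sestrin that restrains mTORC1, was at 3.21, 2.82 and 2.14 CPM in Smn1OE, 3.28, 3.61 and 2.97 CPM in Smn1OE_K186R, 5.23, 4 and 4.63 CPM in Bap1KO, and 8.18, 6.97 and 8.4 CPM in WT. WT was highest, Bap1KO intermediate and the SMN groups lowest, with no overlap between these levels. Sesn1 fell in Bap1KO against WT (-0.77 ± 0.17, adjusted p = 0.0192, up to 0.0713 on omitting Bap1KO library 2 or 3 or WT library 1 or 3) and in Smn1OE against Bap1KO (-0.76 ± 0.18, adjusted p = 0.00726), and was -0.49 ± 0.18, adjusted p = 0.0502 in Smn1OE_K186R against Bap1KO. Sesn2, its paralog, ranged over 83.5 to 120.2 CPM and was not called. Ephx1, the microsomal epoxide hydrolase, was at 368, 302 and 312 CPM in Smn1OE, 399, 286 and 342 CPM in Smn1OE_K186R, 469.8, 472 and 450.4 CPM in Bap1KO, and 337, 379 and 322 CPM in WT. Bap1KO was above every other library. It rose in Bap1KO against WT (0.42 ± 0.12, adjusted p = 0.0417), a call lost when any 1 of the 6 libraries was left out (adjusted p up to 0.131), and was lower in Smn1OE (-0.5 ± 0.12, adjusted p = 0.00727) and Smn1OE_K186R than in Bap1KO (-0.44 ± 0.12, adjusted p = 0.0145).

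**Figure D3:**
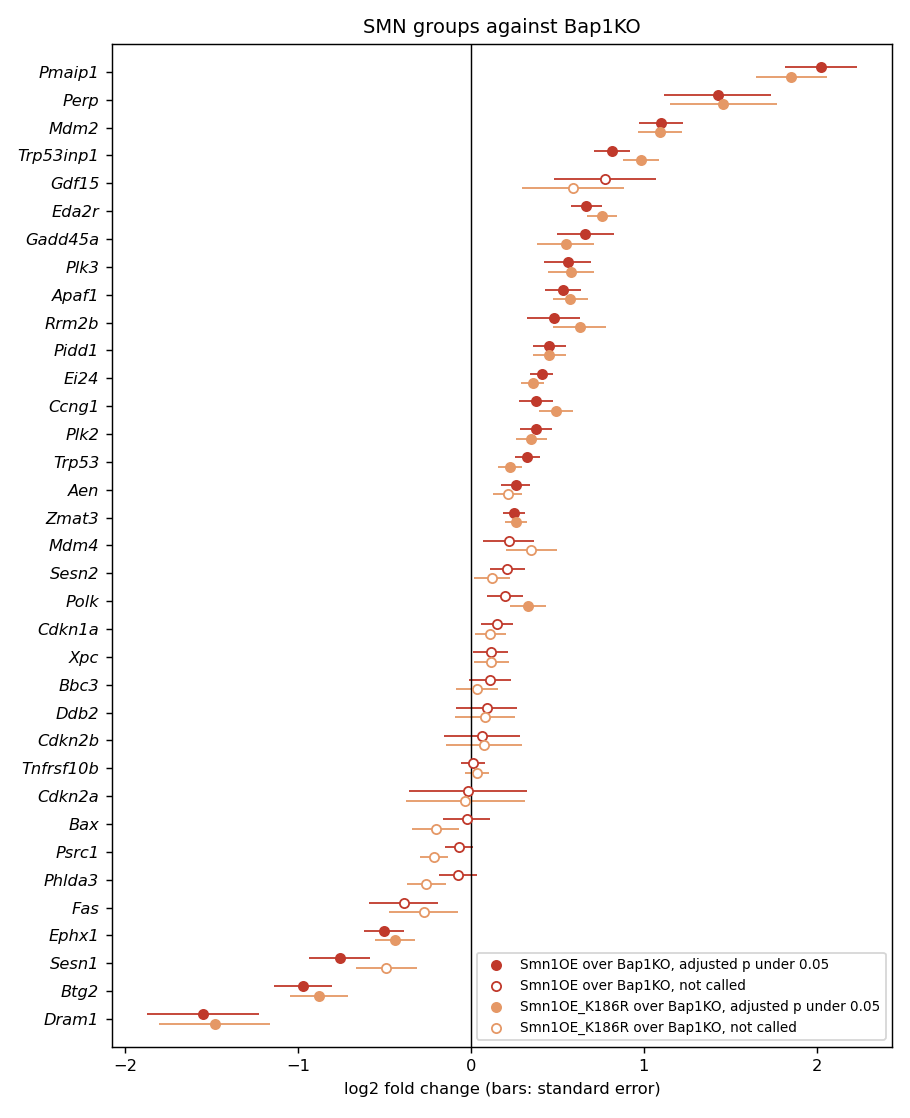
Log2 fold change of the 35 genes in Smn1OE and in Smn1OE_K186R against Bap1KO, with bars for the standard error and filled points for called genes. Pmaip1, Perp and Mdm2 lie furthest to the right and Dram1 and Btg2 furthest to the left for both SMN groups.

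In Bap1KO against WT the result depended on whether the media batch was used. With the batch as a block, 14 of the 35 were higher and 7 lower, where 29% of all genes were called. The genes added as higher were Trp53 (0.2 ± 0.054, adjusted p = 0.0139), Mdm2 (0.29 ± 0.063, 0.0035), Plk3 (0.27 ± 0.062, 0.00549), Gadd45a (0.55 ± 0.077, 0.00019), Bbc3 (0.39 ± 0.082, 0.00314), Trp53inp1 (0.35 ± 0.096, 0.0158) and Gdf15 (1.01 ± 0.086, 3.96e-06). Those added as lower were Cdkn2a and Cdkn2b, given above, Btg2 (-0.33 ± 0.1, 0.0303), Fas (-0.51 ± 0.11, 0.00467) and Dram1 (-0.61 ± 0.12, 0.00186). Within the 3 batches Gdf15 was 2.05, 1.89 and 2.13 times as high in Bap1KO as in WT, Mdm2 1.22, 1.22 and 1.24 times and Cdkn1a 1.48, 1.39 and 1.38 times. All 3 pairs pointed the same way for these 3 genes and for the other genes added by the block except Btg2, which was 1.07, 0.626 and 0.751 times as high in Bap1KO as in WT. The blocked test has 4 residual degrees of freedom. In the test without a block, the 9 calls became 3 on omitting Bap1KO library 2, Bap1KO library 3 or WT library 3, and 2 on omitting WT library 1.

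**Figure D4:**
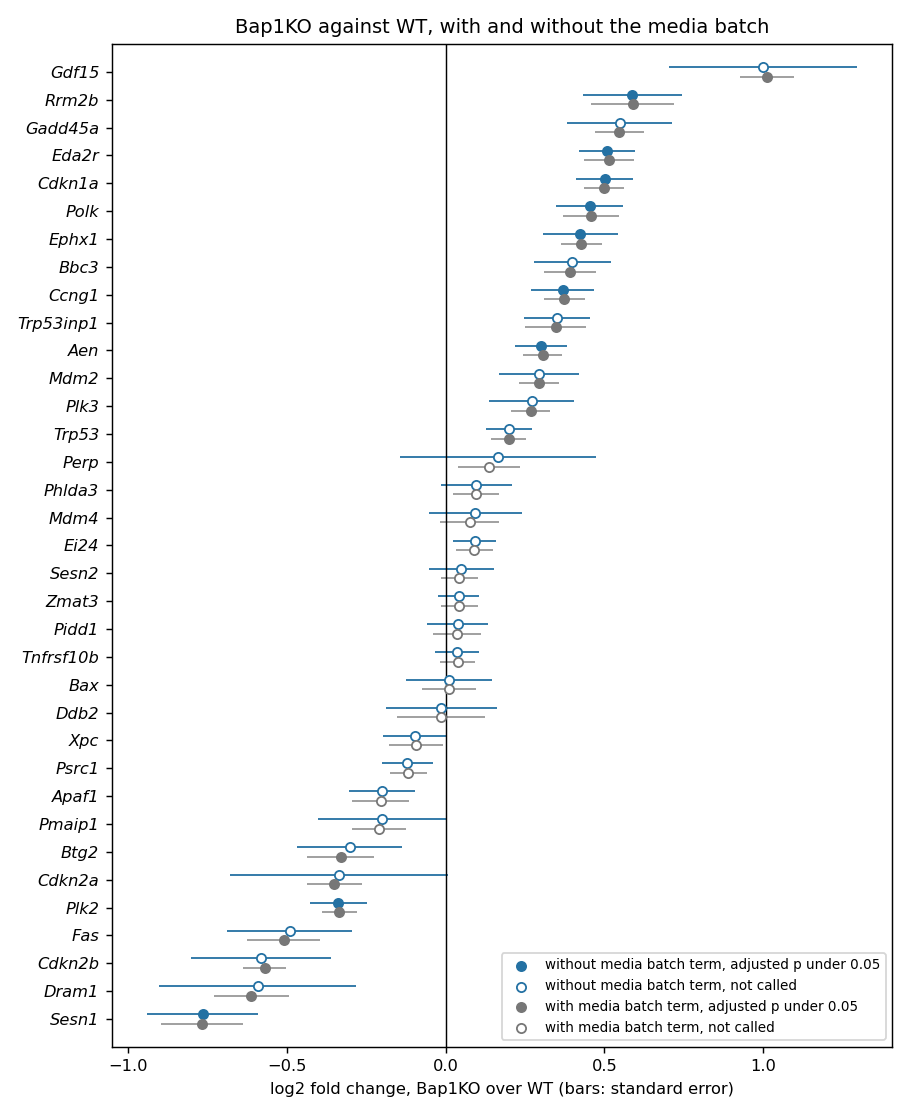
Log2 fold change of the 35 genes in Bap1KO against WT with its standard error as bars, without (blue) and with (grey) the media batch as a block, and filled points for called genes. The estimates hardly move, while the bars of genes such as Gdf15, Cdkn2a and Cdkn2b shorten with the block.

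Between Smn1OE_K186R and Smn1OE none of the 35 was called, and 0% of all genes were. None of the 35 had an unadjusted p under 0.05 in edgeR (388 of the 16597 genes did), and DESeq2 called none of them either. With the batch as a block 48 genes were called (0.289%), again with none of the 35. The size of difference that remains possible is given by the 95% intervals of the log2 fold change, which were -0.28 to 0.27 for Mdm2, -0.23 to 0.16 for Cdkn1a and -0.6 to 0.26 for Pmaip1. They were widest for Cdkn2a (-0.76 to 0.73), Dram1 (-0.63 to 0.77) and Perp (-0.62 to 0.69).

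Further genes of the pathway were read in lists outside the 35. Of 23 other p53 targets tested, 3 rose and 3 fell in Smn1OE against WT and 3 rose and 4 fell in Smn1OE_K186R, with medians of 0.016 and 0.047. Both shares are under those of all genes given above, and the 6 calls in Smn1OE became 3 on omitting Smn1OE library 3 or WT library 1, and the 7 in Smn1OE_K186R became 3 on omitting WT library 1 and 4 on omitting Smn1OE_K186R library 2 or 3. Cyfip2, a WAVE complex subunit, was the strongest riser, with 1.78 ± 0.441 CPM in Smn1OE and 0.322 ± 0.0428 CPM in WT (2.46, adjusted p = 0.000145), followed by Trp53i11 (1.51, adjusted p = 0.000193). Steap3, a metalloreductase, fell (-0.67, adjusted p = 0.0318). The only call among them in Bap1KO against WT was Btg1, an antiproliferative relative of Btg2, which fell (-0.57, adjusted p = 0.00166), while DESeq2 called 2 of them and the fit with the batch as a block gave 2 higher and 2 lower. Of all genes, 9.72% were called there without the block and 29% with it. Of 23 genes whose products modify or bind p53, 5 rose and 3 fell in Smn1OE and 9 rose and 4 fell in Smn1OE_K186R against WT (13 calls, and 7 on omitting WT library 1). These are 34.8% and 56.5% of the list, against 50.4% and 50.5% of all genes. The deacetylase Sirt1 was the strongest riser in both (1.22, adjusted p = 7.94e-05 and 1.19, adjusted p = 9.54e-05). None was called in Bap1KO against WT by edgeR without a block, where 5 had an unadjusted p under 0.05 and DESeq2 called 2, and with the batch as a block 4 were higher and 1 lower. That blocked fit called 29% of all genes.

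Genes of the cell cycle that p21 represses through the RB and DREAM complexes were reduced in each SMN group relative to WT. Of 24 such genes, 24 fell in Smn1OE and 23 in Smn1OE_K186R against WT (26.6% and 26.5% of all genes were lower), with medians of -1.35 and -1.35. The mitotic kinase Aurkb averaged 4.73 ± 1.86 CPM in Smn1OE and 17.5 ± 4.83 CPM in WT (-1.89, adjusted p = 0.000807), and topoisomerase Top2a differed by -1.88, adjusted p = 0.00143. Against Bap1KO, where Cdkn1a was not called, 15 fell in Smn1OE and 13 in Smn1OE_K186R. These are 62.5% and 54.2% of the list, against 17.7% and 16.5% of all genes called lower. The 15 became 5 on omitting Bap1KO library 1 or Smn1OE library 3 and 6 on omitting Smn1OE library 1. The 13 became 6 on omitting Bap1KO library 1 or Smn1OE_K186R library 3, and 8 on omitting Smn1OE_K186R library 1. They became 22 on omitting Smn1OE_K186R library 2, the library with the strongest length trend. In Bap1KO against WT none was called by edgeR without a block, while 9 had an unadjusted p under 0.05, DESeq2 called 6, all 24 estimates were negative (median -0.56), and 22 were lower with the batch as a block. That blocked fit called 29% of all genes.

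Among the other CDK inhibitors, Cdkn1c, p57, was higher in both SMN groups (24.6 ± 8.54 CPM in Smn1OE and 5.86 ± 2.19 CPM in WT, 2.07, adjusted p = 0.00153), and Cdkn2d, p19INK4d, and Cdkn2c, p18INK4c, were lower (-2.25, adjusted p = 4.26e-05 and -1.71, adjusted p = 0.00114 in Smn1OE against WT). Cdkn2d also fell in Bap1KO against WT (-0.99, adjusted p = 0.0252), and this 1 call of the list was lost on omitting Bap1KO library 2 or 3 or WT library 1 or 3, while 4 genes were lower with the batch as a block. The blocked fit called 29% of all genes. Of 11 genes of this list 2 rose and 4 fell in each SMN group against WT, and these 54.5% are near the 50.4% and 50.5% of all genes.

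Of 12 further BCL2 family genes, 3 rose and 5 fell in Smn1OE and 4 rose and 5 fell in Smn1OE_K186R against WT, and the 8 calls in Smn1OE became 5 on omitting Smn1OE library 3. These are 66.7% of the list in Smn1OE and 75% in Smn1OE_K186R, against 50.4% and 50.5% of all genes. The BH3-only gene Bmf fell (-1.54, adjusted p = 0.00452 in Smn1OE), and the survival gene Bcl2l1 rose (0.82, adjusted p = 0.000639 in Smn1OE). Against Bap1KO, 3 rose and 3 fell in Smn1OE (50% of the list, against 33.5% of all genes). In Smn1OE_K186R 2 rose and 3 fell (41.7%, against 32.6% of all genes). The 6 calls in Smn1OE became 3 on omitting Bap1KO library 1 or 3 or Smn1OE library 3. In Smn1OE against Bap1KO, Bcl2l11, which encodes BIM, rose (0.77, adjusted p = 0.00744). Bnip3 (-0.88, adjusted p = 0.0324) and Bad (-0.71, adjusted p = 0.000742) fell there. Bid, the link from death receptors to mitochondria, rose in Bap1KO against WT (0.61, adjusted p = 0.00706), the 1 call of the list there, while with the batch as a block 4 were higher and 3 lower. The blocked fit called 29% of all genes. Of 18 genes of caspases and death receptor signalling, 3 rose and 7 fell in each SMN group against WT, or 55.6%, near the 50.4% and 50.5% of all genes. The caspase-8 inhibitor Cflar rose (1.25, adjusted p = 0.00043 in Smn1OE), and Casp12 fell (-1.6, adjusted p = 0.00138 in Smn1OE).

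**Figure D5:**
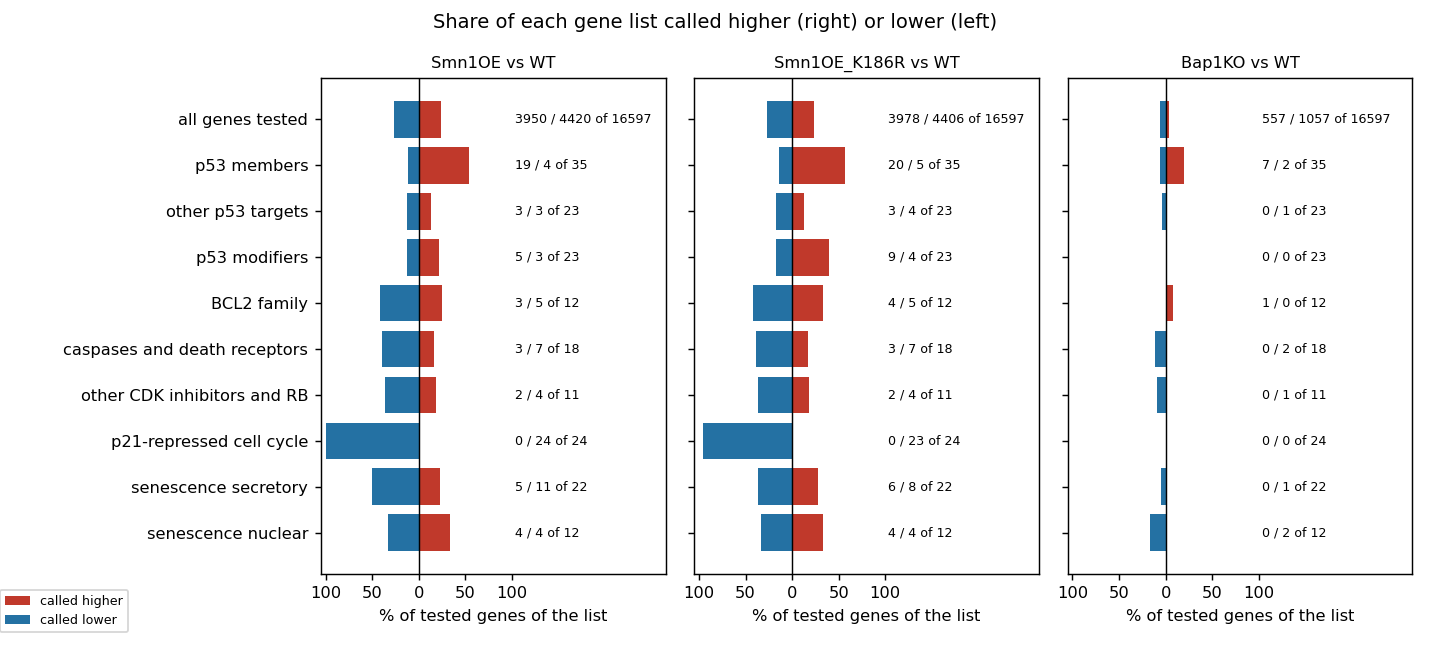
Percent of the tested genes of each list called higher (right) or lower (left) in Smn1OE, Smn1OE_K186R and Bap1KO against WT, with the counts higher / lower of the number tested beside the bars and all tested genes in the top row. The 35 p53 pathway genes lean to the right and the p21-repressed cell cycle genes to the left in both SMN groups, while the other p53 targets lie below the shares of all genes.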

How the data were processed

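Each library has 1 deposited file of raw counts, which the authors made per Ensembl gene and did not normalize. The submitters' processing notes name STAR 2.6.1 and HTSeq 0.9.1 with build GRCm39, and also CASAVA 1.8.2, cutadapt 1.4.2 and DESeq2. Settings, strand use and annotation release are not given in the sources used here. The 5 closing rows that name no gene (11.1 to 14.6% of records) were left out. GENCODE M21, made for the previous build GRCm38, gave symbols and exon lengths for 55154 IDs, and no file coordinates were used. Promoter sequences are RefSeq's, on GRCm38.p6.

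The test was that of edgeR 4.0.16 under R 4.3.3 (TMM scaling, filterByExpr with a minimum count of 10, quasi-likelihood fit of 4 groups over 12 libraries, prior count 0.125, 2-sided tests, Benjamini-Hochberg adjustment over 16597 genes). The common biological coefficient of variation was 0.179. Standard errors are the log2 fold change divided by the square root of F, and intervals are at the 0.95 level. The main fit was also run on simulated counts of independent libraries without media batches, so that run does not bear on the batches of these data. Alternatives were DESeq2 1.42.0, RLE size factors, no filter, fits of 2 groups, each library left out, and the media batch as a block, which limma 3.58.1 (voom, correlation 0.45) took as a random effect where groups share no batch. The labels put same-numbered libraries in 1 media batch, and the deviation of each gene from its group mean correlated within a batch at 0.311, 0.435 and 0.24 (Bap1KO with WT) and 0.384, 0.302 and 0.431 (Smn1OE_K186R with Smn1OE). Between libraries of different groups that share no batch, it ranged from -0.349 (Bap1KO replicate 1 with WT replicate 2) to 0.303. The latter was Bap1KO replicate 2 with Smn1OE_K186R replicate 3, so the ranges overlap. The 35 genes, the other gene lists and the rule for named genes (of each other list at most 3 called genes per comparison, those with the largest change) were chosen with earlier results of these data known.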

Additional observations from a re-analysis of the deposited data

How the results depend on the processing

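The count of members called in Bap1KO against WT depended most on the processing. It was 9 as reported, 14 without a filter on low counts, 21 with the replicate block, and 2 to 8 without each library in turn. With the block, 4814 genes were called in that comparison in place of 1614, and with DESeq2 2560, and leaving out a library gave 535 to 1457. Against Bap1KO, members called without each library numbered 17 to 21 in Smn1OE and 16 to 19 in Smn1OE_K186R. All genes called numbered 3512 to 5627 in Smn1OE and 3385 to 5309 in Smn1OE_K186R, and 3462 in Smn1OE_K186R in the fit of those 2 groups. Against WT, members called without each library numbered 22 to 24 in Smn1OE and 24 to 26 in Smn1OE_K186R, and all genes called 6944 to 7796 in Smn1OE and 6823 to 7782 in Smn1OE_K186R. Between Smn1OE_K186R and Smn1OE the counts of members and of genes stayed at 0 without each library, and 48 genes were called with the block. The cause of these shifts was not tested, other than that fewer libraries were in the fit where 1 was left out. No called member changed direction under an alternative. The calls of 2 of 9 members in Bap1KO against WT held in every alternative, as did those of 16 of 20 in Smn1OE and 14 of 19 in Smn1OE_K186R against Bap1KO, and of 22 of 23 in Smn1OE and 24 of 25 in Smn1OE_K186R against WT. Beyond the values given beside the results, the block took away no call of a member, and as a random effect it added Sesn2 in Smn1OE against WT (adjusted p = 0.0336). The scarcest members, Ddb2 and Sesn1, with values of a few CPM, carry the largest counting error, and the spread between 3 libraries limits the rest.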

Other observations

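Of 22 secreted factors linked to senescence, 5 rose and 11 fell in Smn1OE and 6 rose and 8 fell in Smn1OE_K186R against WT, with medians of -0.52 and -0.35. These calls are 72.7% of the list in Smn1OE and 63.6% in Smn1OE_K186R, against 50.4% and 50.5% of all genes (26.6% and 26.5% lower). The neutrophil chemokine Cxcl1 averaged 4.58 ± 2.28 CPM in Smn1OE and 62.3 ± 6.47 CPM in WT (-3.75, adjusted p = 9.35e-05). The cytokine Il6 fell as well (-3.09, adjusted p = 2.17e-05 in Smn1OE). The stromelysin Mmp10 rose in Smn1OE (3.04, adjusted p = 0.000323) and in Smn1OE_K186R (2.83, adjusted p = 0.000486), and the growth factor Areg rose in Smn1OE_K186R (2.79, adjusted p = 0.000143). In Bap1KO against WT the single call was Igfbp7, which fell (-0.46, adjusted p = 0.0193). No gene of the list was called there on omitting Bap1KO library 3 or WT library 2 or 3, DESeq2 called 2, and with the batch as a block 1 was higher and 8 lower. The blocked fit called 29% of all genes.

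Of 12 chromatin and nuclear genes linked to senescence, 4 rose and 4 fell in each SMN group against WT, or 66.7%, against 50.4% and 50.5% of all genes. The chromatin protein Hmgb2 fell (-1.59, adjusted p = 0.00229 in Smn1OE), and Ets1, a transcription factor, rose (1.15, adjusted p = 4.69e-05 in Smn1OE). Lmnb1, which encodes the nuclear lamina protein lamin B1, fell in Bap1KO against WT, with 20.5 ± 3.44 CPM in Bap1KO and 35.8 ± 7.47 CPM in WT (-0.8, adjusted p = 0.0239), as did the Polycomb gene Cbx7 (-1.29, adjusted p = 0.0434). These 2 calls became 0 on omitting Bap1KO library 2 or 3 or WT library 1, and 1 on omitting WT library 2 or 3, while 5 genes of the list were lower with the batch as a block. The blocked fit called 29% of all genes.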
